A study of Mus musculus with 6 samples.

Results

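The mouse lambda light chain locus was described through its 9 named segments, IGLV1, IGLV2, IGLV3, IGLJ1, IGLJ2, IGLJ3, IGLC1, IGLC2 and IGLC3, in spleen B cells of 1 WT C57BL/6JRj mouse and 1 mouse heterozygous for 564Igi, which carries the alleles Igktm1(Igk564)Tik and Ightm1(Igh564)Tik on a B6.129S4(Cg) background. 564Igi animals carry already rearranged heavy and kappa genes of an autoreactive antibody at their own loci, and the WT mouse carries neither. Splenocytes were depleted of Ter-119+ (erythroid) cells, captured on the 10x Chromium system and sequenced with 5′ V(D)J kits, which assemble receptor transcripts of single cells into contigs and count their molecules by unique molecular identifiers (UMIs). Age, sex and treatment of the mice are not given in the sources used here. Barcodes that the B cell table of a mouse calls cells, and its T cell table does not, were taken as B cells. A lambda contig was a high-confidence contig of at least 2 UMIs with one of the V genes IGLV1, IGLV2 and IGLV3. This left 856 lambda contigs in WT and 151 in 564Igi, 1007 of the 83467 contigs in the B cell tables of both mice. Of these, 581 WT and 99 564Igi contigs were called productive, that is, able to be read through to the constant region.

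A mouse B cell first tries to join a V and a J segment at its kappa genes, and turns to lambda mostly when kappa rearrangement has failed or has made a self-reactive receptor. The mouse lambda locus is small. It has few V segments and J segments that each sit next to their own constant segment, so choice of segments gives few combinations. Bases trimmed or added where V and J meet can add further variety. That junction lies in CDR3, the loop at the centre of the antigen-binding site.

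For WT, 927382 UMIs (24740982 reads) were listed in the B cell table, and for 564Igi 747499 (20898886). They gave 6513 WT and 3827 564Igi B cells, of which 6395 and 3649 had a productive light chain, at a median of 44 and 18 light chain UMIs per cell. Lambda cells of either mouse were B cells by their heavy chains. IGHM or IGHD was the constant gene in 278 of 279 WT IGLV1 cells, 120 of 120 IGLV2 cells and 63 of 63 IGLV3 cells in which it was read. In 564Igi the counts were 62 of 63, 13 of 13 (lower limit 75.3%) and 11 of 11 (lower limit 71.5%). In barcodes called only as T cells, a productive lambda contig was found in 1 of 3263 in WT and 0 of 4573 in 564Igi, which allows a share of up to 0.0656%. Barcodes also called B cells (345 WT, 373 564Igi) are not among these, so the low count was partly set by that choice. The B cell tables of the mice shared 38 cell barcodes. Of the lambda barcodes 7 were also B cell barcodes of the other mouse, and 0 held a lambda chain in both. Each group was 1 mouse, so no test between groups was possible and no p-value is given. Intervals are exact (Clopper-Pearson) 95% intervals, and differences are 564Igi minus WT in percentage points. Both cover counting error only and describe these 2 mice, not the genotypes.

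The CDR3 sequences that carried most of the repertoire are shown first, 5′ to 3′ from the codon of the leading cysteine, because a handful of them account for most lambda cells. Capitals mark the stretch in which the sequences printed for the same V and J differ from each other. The sequences printed for IGLV1 with IGLJ1 were these.
IGLV1-IGLJ1, most common: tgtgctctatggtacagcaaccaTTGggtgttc
IGLV1-IGLJ1, next: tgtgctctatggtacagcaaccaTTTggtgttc
IGLV1-IGLJ1, silent variant: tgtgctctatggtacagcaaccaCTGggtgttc
The sequences of IGLV1 with IGLJ3 share the same V end.
IGLV1-IGLJ3, most common: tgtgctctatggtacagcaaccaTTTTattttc
IGLV1-IGLJ3, next: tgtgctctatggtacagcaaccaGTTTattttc
IGLV1-IGLJ3, silent variant: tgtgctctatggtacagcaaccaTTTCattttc
The sequences of IGLV2 with IGLJ2 differ from each other at a single base, and that of IGLV2 with IGLJ1 is printed without capitals because it stands alone.
IGLV2-IGLJ2, most common: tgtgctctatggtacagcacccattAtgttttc
IGLV2-IGLJ2, next: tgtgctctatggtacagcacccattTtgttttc
IGLV2-IGLJ1: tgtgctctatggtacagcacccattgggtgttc
IGLV3 ends in a different and longer stretch.
IGLV3-IGLJ2, most common: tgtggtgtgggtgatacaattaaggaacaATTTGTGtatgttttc
IGLV3-IGLJ2, next: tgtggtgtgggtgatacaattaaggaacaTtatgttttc

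The most common IGLV1-IGLJ1 sequence was held by 165 of 304 WT contigs of that pair (54.3%) and by 26 of 55 in 564Igi (47.3%). The next carries G26T, counted from the first base of CDR3, which gives W9L, and was found in 58 WT and 8 564Igi contigs. The silent variant carries T24C, which leaves the amino acids as they were, and was found in 37 and 11. For IGLV1-IGLJ3 the counts were 26 WT and 11 564Igi contigs of the most common sequence, 5 and 4 of its T24G (H8Q) form, and 5 and 2 of its silent T27C form. The leading IGLV2-IGLJ2 sequence made up 121 of 139 WT contigs (87.1%) and 12 of 15 in 564Igi, and its A26T (Y9F) form 11 and 2. The leading IGLV3-IGLJ2 sequence, of 45 bases, made up 68 of 77 IGLV3-IGLJ2 contigs in WT (88.3%) and 11 of 12 in 564Igi, and the shorter one, of 39 bases, 3 and 0. In each of the 4 main V-J pairs the most common sequence was the same in both mice.

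**Figure D1:**
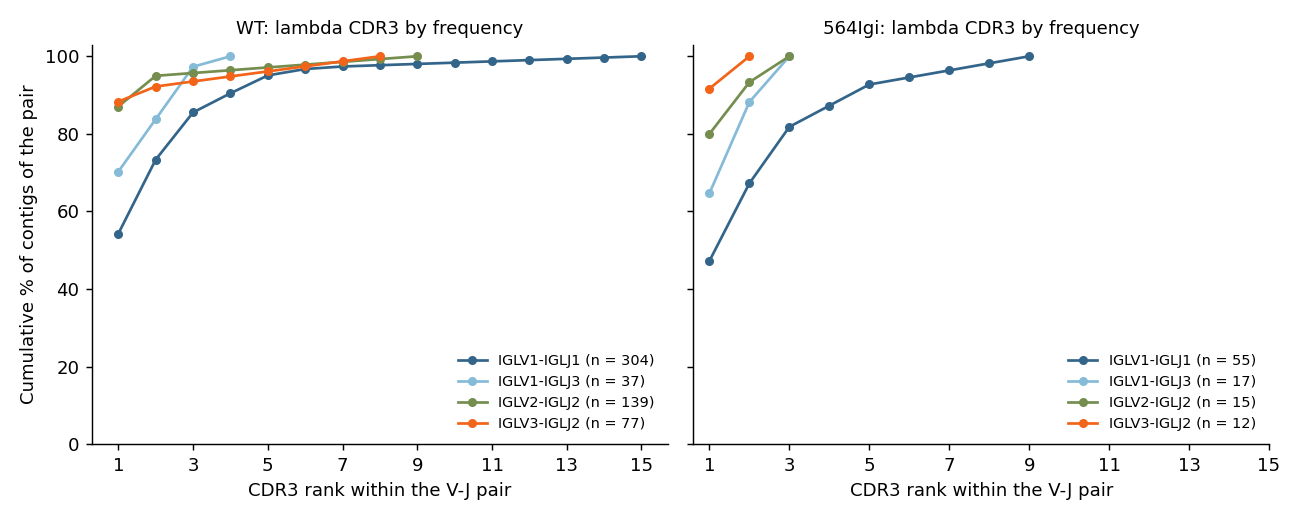
Cumulative share (y axis, % of the productive contigs of a V-J pair) of its CDR3 nucleotide sequences in order of frequency (x axis, rank), for WT on the left and 564Igi on the right, with the number of contigs in the key. IGLV2-IGLJ2 and IGLV3-IGLJ2 start at 80% or above in both mice, whereas IGLV1-IGLJ1 starts at 54.3% in WT and 47.3% in 564Igi.

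These sequences recurred in unrelated cells. The 136 WT cells with the leading IGLV1-IGLJ1 sequence and a heavy chain held 136 distinct heavy CDR3s, the 99 with the leading IGLV2-IGLJ2 sequence held 99, and the 59 with the leading IGLV3-IGLJ2 sequence held 59. Over all lambda cells with a heavy chain, 479 in WT made 477 distinct pairs of lambda and heavy chain. In 564Igi, 91 cells made 78 pairs, and all 17 cells in pairs seen more than once carried the candidate heavy chain. That name is used here for the heavy chain most frequent in 564Igi B cells (IGHV1-53 with IGHJ4), as candidate kappa is used for the most frequent kappa chain (IGKV4-59 with IGKJ5). The labels do not give the sequences of the inserted genes.

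Lambda CDR3s were few. WT held 42 distinct nucleotide sequences in 581 contigs and 564Igi 17 in 99. At an equal draw of 99 contigs the expected number of distinct sequences was 17.5 in WT and 17.0 in 564Igi. Kappa chains other than the candidate gave 83.6 and 81.5 distinct sequences at the same draw. The inverse Simpson index, the number of equally common sequences that would give the same chance of drawing a match, was 6.40 in WT and 7.57 in 564Igi for lambda and 222 and 115 for these kappa chains. By V gene it was 3.76 and 5.06 for IGLV1, 1.52 and 1.51 for IGLV2, and 1.28 and 1.18 for IGLV3. Within single V-J pairs lambda was less unlike kappa. Among the 30 kappa V-J pairs with at least 50 WT contigs, the leading CDR3 took between 38.9% and 94.8% of contigs (median 68.5%), a range that holds the leading shares of IGLV1-IGLJ1, IGLV2-IGLJ2 and IGLV3-IGLJ2 in WT. Sequences found in both mice covered 90.7% of WT and 96.0% of 564Igi lambda contigs, against 46.9% and 80.7% of contigs of these kappa chains. Neither these shares nor the inverse Simpson values were drawn to equal numbers. The kappa chains numbered 6956 contigs in WT and 300 in 564Igi, which limits how many WT kappa sequences could be found in both mice.

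In the RefSeq annotation of GRCm38.p6 the locus lies on chromosome 16. Iglv1 lies at chr16:19085017-19085460, Iglj1 at chr16:19063225-19063262 with Iglc1 at chr16:19061752-19062071, and Iglj3 at chr16:19067041-19067078 with Iglc3 at chr16:19065365-19065681. On the other side of Iglv1 lie Iglj2 at chr16:19200198-19200235 with Iglc2 at chr16:19198536-19198852, then Iglv3 at chr16:19241208-19241679 and Iglv2 at chr16:19260403-19260844. Iglv1 is thus 21.8 kb from Iglj1 and 17.9 kb from Iglj3, and Iglv2 and Iglv3 are 60.2 kb and 41.0 kb from Iglj2, whereas Iglv2 is 197 kb from Iglj1 and 193 kb from Iglj3.

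Nearly all productive lambda contigs joined a V segment to a J segment of its own part of the locus. IGLV1-IGLJ1 made up 304 WT and 55 564Igi contigs, IGLV2-IGLJ2 139 and 15, IGLV3-IGLJ2 77 and 12, and IGLV1-IGLJ3 37 and 17. The longer productive joins were rare and were read in WT alone: 9 contigs of IGLV2-IGLJ1 and 2 of IGLV2-IGLJ3. A further 13 contigs, also in WT alone, were named IGLV1-IGLJ2. Every other join named here has its V at a higher coordinate than its J. Iglv1 lies at a lower coordinate than Iglj2. At 99 contigs in 564Igi, a count of 0 allows a share of up to 3.03%. In productive contigs of IGLV1 with IGLJ1, codon 7 of CDR3 was AAC in 303 of 304 WT and 54 of 55 564Igi contigs, and with IGLJ3 in 37 of 37 and 17 of 17. In contigs named IGLV2 it was ACC in 9 of 9 with IGLJ1, 138 of 139 with IGLJ2 and 2 of 2 with IGLJ3 in WT, and 15 of 15 in 564Igi. All 13 contigs named IGLV1-IGLJ2 carried ACC and the leading IGLV2-IGLJ2 CDR3 base for base, and 3 of them shared a cell with an IGLV1-IGLJ1 contig. Whether they are IGLV2 contigs under an IGLV1 name was not tested, since contig sequences outside CDR3 were not analysed here. They are counted under the name given, also in the shares by V gene, which would shift if the name were wrong.

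The constant gene followed the J segment. Of productive and nonproductive contigs together, those with IGLJ1 were named IGLC1 in 445 of 445 WT and 81 of 81 564Igi cases, and those with IGLJ3 were named IGLC3 in 117 of 117 and 35 of 35. Contigs with IGLJ2 were named IGLC3, and not the neighbouring IGLC2, in all 292 WT and 35 564Igi cases. IGLC2 and IGLC3 are close copies of each other and Iglj2 lies 135 kb from Iglc3 against 1.34 kb from Iglc2, so the name IGLC3 on IGLJ2 contigs is uncertain, and IGLC2 was given to no contig.

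Among productive contigs, IGLV1 made up 60.9% in WT (354 of 581, interval 56.8 to 64.9) and 72.7% in 564Igi (72 of 99, 62.9 to 81.2), a difference of 11.8 points (1.15 to 21.2). IGLV2 made up 25.8% and 15.2% (150 and 15 contigs), a difference of -10.7 points (-18.1 to -1.37). IGLV3 differed by -1.13 points (-7.59 to 7.39), with 77 and 12 contigs. By J segment, IGLJ1 was at 53.9% and 55.6%, IGLJ2 at 39.4% and 27.3%, and IGLJ3 at 6.71% and 17.2%. The largest relative difference between the mice was thus in IGLJ3, and it lay in a single pair: IGLV1-IGLJ3 was 6.37% of WT and 17.2% of 564Igi contigs, a difference of 10.8 points (3.59 to 19.9). Over distinct pairs of lambda and heavy chain it was 6.71% of 477 in WT (4.63 to 9.34) and 8.97% of 78 in 564Igi (3.68 to 17.6), and with each distinct lambda chain counted once the difference was 8.12 points (-10.9 to 34.8).

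**Figure D2:**
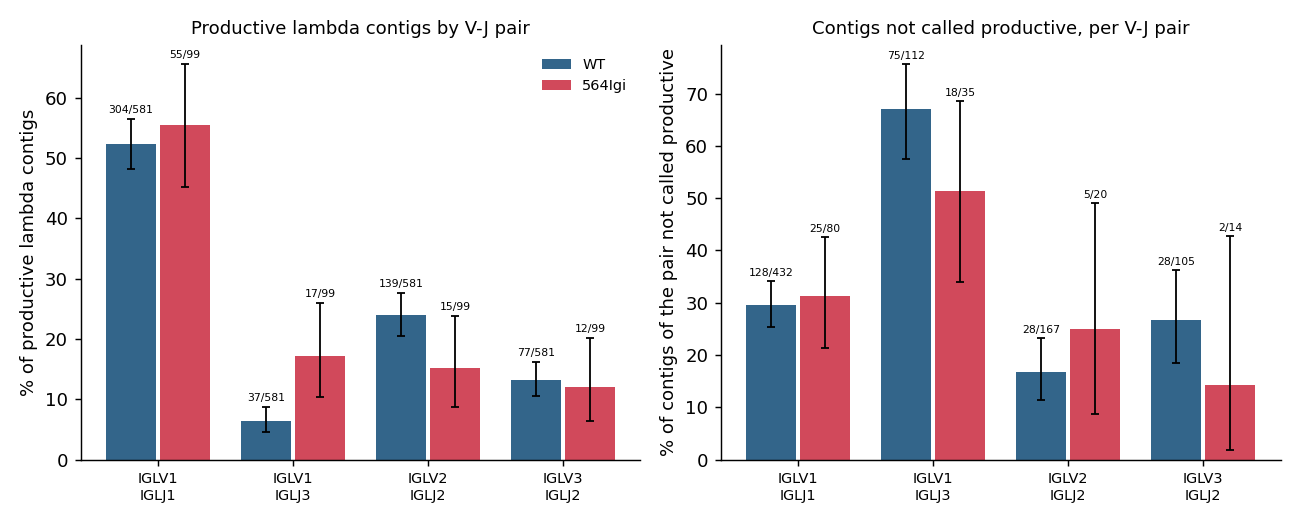
Left, share of productive lambda contigs (y axis, %) in each of the 4 main V-J pairs (x axis), and right, share of all contigs of a pair that were not called productive (y axis, %). WT is blue and 564Igi red, bars carry exact 95% intervals and the counts behind them; IGLV1-IGLJ3 is higher in 564Igi on the left (17.2% against 6.37%) and has the highest share without a productive call on the right (67.0% in WT).

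The higher share of IGLV1-IGLJ3 in 564Igi moved with the candidate heavy chain. Of the 16 IGLV1-IGLJ3 cells of 564Igi in which a heavy chain was read, 12 carried the candidate heavy chain (75%, 47.6 to 92.7), against 6 of 51 IGLV1-IGLJ1 cells (11.8%, 4.44 to 23.9), 0 of 13 IGLV2-IGLJ2 cells (0 allows up to 23.1%) and 2 of 11 IGLV3-IGLJ2 cells. Of these 12 cells, 7 held the most common IGLV1-IGLJ3 sequence, 4 its H8Q form and 1 its T27C form, and 10 of 12 held no productive kappa chain. Turned around, IGLV1-IGLJ3 made up 12 of the 20 lambda cells with the candidate heavy chain (60.0%, 36.1 to 80.9) and 4 of the 71 with another heavy chain (5.63%, 1.56 to 13.8), while in WT it made up 33 of 479 (6.89%, 4.79 to 9.54). Without cells that carry the candidate heavy chain, IGLV1-IGLJ3 was 6.33% of 564Igi and 6.37% of WT contigs, and the IGLV1 difference between the mice was 7.42 points, with an interval that held 0 (-4.69 to 18.2). Cells that descend from 1 rearrangement cannot be told apart here from separate cells that made the same short junction.

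A productive lambda chain was found in 573 WT cells, 8.96% of light chain cells (8.27 to 9.69), and in 98 564Igi cells, 2.69% (2.19 to 3.26). The difference was -6.27 points (-7.16 to -5.38). Among the 194 564Igi light chain cells without the candidate kappa chain, 56 (28.9%, 22.6 to 35.8) held lambda. Lambda was the sole light chain in 401 WT and 50 564Igi cells. It stood beside a productive kappa chain in 172 WT lambda cells (30.0%, 26.3 to 34.0) and 48 in 564Igi (49.0%, 38.7 to 59.3), a difference of 19.0 points (7.99 to 29.9). Counted over distinct chains instead of cells, the difference for lambda among light chains was 4.45 points (0.987 to 9.02). Over distinct lambda-kappa pairs, that for kappa beside lambda was -24.1 points (-43.7 to -5.65). Recurring kappa chains also count once: the candidate kappa chain, 3455 of 3755 productive 564Igi kappa contigs, counts as 1. Cells with the same lambda chain and no kappa merge too, which left kappa in 161 of 196 WT and 18 of 31 564Igi pairs. Both changes of sign thus come with a different unit and do not describe cells. Counted over cells, the difference in kappa beside lambda lay in IGLV1. Its cells held kappa in 105 of 351 cases in WT (29.9%) and 40 of 72 in 564Igi (55.6%), a difference of 25.6 points (12.4 to 38.3). For IGLV2 the shares were 31.3% and 33.3%, with an interval of the difference from -21.0 to 31.2 points, and for IGLV3 27.8% and 27.3% (-24.8 to 34.6), so a difference as large as that of IGLV1 lies within both intervals.

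A further heavy chain was much more common in cells with kappa and lambda. Among cells in which a heavy chain was read, more than 1 productive heavy chain was present in 42 of 152 WT cells with both light chains (27.6%, 20.7 to 35.5), against 2 of 327 sole-lambda cells (0.612%) and 305 of 4294 kappa-only cells (7.10%). In 564Igi the counts were 6 of 46 (13.0%), 0 of 45 (up to 6.67%) and 110 of 3231 (3.40%). Cells with both light chains also held more UMIs. The median per cell was 142 in WT, against 70 in kappa-only and 81 in sole-lambda cells. In 564Igi it was 100, against 53 and 78. No doublet caller was run. The part of droplets with 2 B cells, or of UMI depth, in the heavy chain counts was not tested. Without cells of more than 1 heavy chain, kappa was present in 24.6% of WT (130 of 529) and 45.7% of 564Igi (42 of 92) lambda cells, a difference of 21.1 points (9.94 to 32.4). Cells with more than 1 lambda chain numbered 8 in WT and 1 in 564Igi. Of these 9, 4 WT cells and the 564Igi cell joined IGLV1-IGLJ1 with IGLV3-IGLJ2.

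Lambda was usually the more abundant chain of the pair. In WT cells with both chains, lambda was at a median of 51 UMIs and kappa at 39, and the median log2 ratio of lambda to kappa was 0.46 (quartiles -0.44 and 1.34). Lambda exceeded kappa in 108 of 172 WT cells (62.8%, 55.1 to 70.0). In 564Igi the medians were 41 and 21 UMIs, the log2 ratio 1.08 (0.20 and 1.81), and lambda exceeded kappa in 38 of 48 cells (79.2%, 65.0 to 89.5), a difference of 16.4 points (0.476 to 29.3) whose lower limit lay close to 0. The interval held 0 without cells of more than 1 heavy chain (-2.73 to 29.0), at a minimum of 1 UMI (-1.83 to 27.4) and at a minimum of 5 (-0.207 to 29.7). With each lambda-kappa pair counted once the difference was -1.62 points (-28.1 to 21.4). That count reads each pair from a single cell, the first by barcode, which left 18 pairs in 564Igi and ignores the UMIs of the other cells. IGLV3 differed in order from IGLV1 and IGLV2 in WT, with lambda above kappa in 9 of 20 cells and a median log2 ratio of -0.27, against 69 of 105 for IGLV1 (0.51) and 30 of 47 for IGLV2 (0.55), but the interval for IGLV3 (23.1% to 68.5%) held both other shares.

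Kappa UMIs differed more between the mice than lambda UMIs. Sole-lambda cells had a median of 51 lambda UMIs in WT and 49 in 564Igi, whereas kappa-only cells had 41 and 18 kappa UMIs. The candidate kappa chain was the leading kappa chain in 40 of the 48 564Igi cells with lambda (83.3%, 69.8 to 92.5) and in 3279 of 3551 kappa-only cells (92.3%). Lambda exceeded it in 34 of those 40 cells, at a median log2 ratio of 1.36, and exceeded the other kappa chains in 4 of 8, at a median of -0.12. In sole-lambda cells of 564Igi, 0 of 50 (up to 6.00%) held a contig of the candidate kappa chain at any UMI count or confidence flag. Sole-lambda cells were chosen for having no high-confidence productive kappa contig of at least 2 UMIs, so this count was partly set by that choice.

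**Figure D3:**
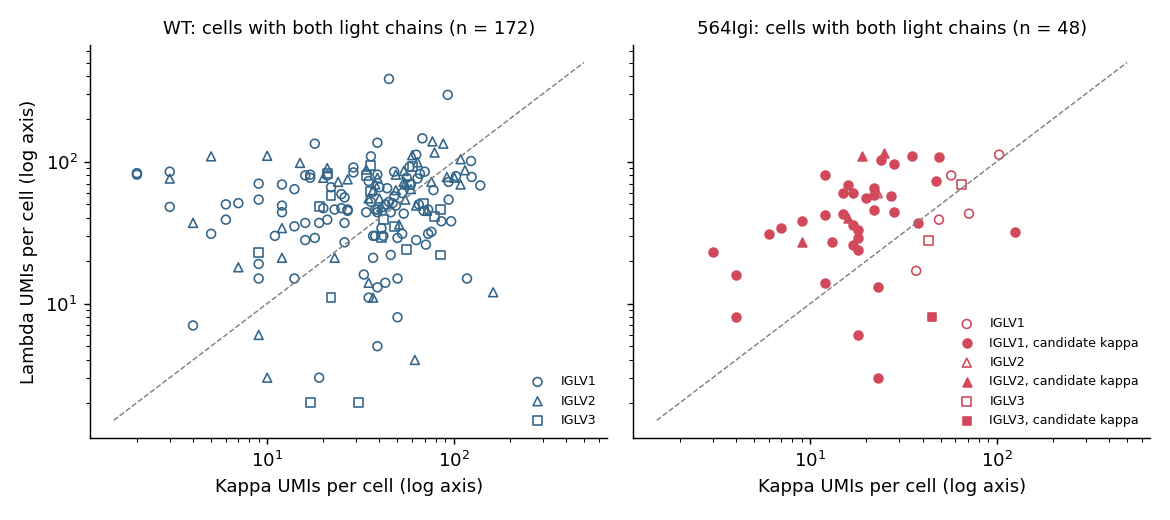
Lambda UMIs (y axis, log scale) against kappa UMIs (x axis, log scale) in each cell with both chains, for 172 WT cells (left) and 48 564Igi cells (right). Symbols give the lambda V gene, filled symbols a candidate kappa chain, and the dashed line equal UMIs; 108 WT and 38 564Igi cells lie above the line.

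In WT, the kappa chains held beside lambda used IGKJ5 more and IGKJ1 less often than those of kappa-only cells. IGKJ5, the J segment farthest downstream and therefore the last available to repeated kappa rearrangement, was used by 69 of 172 (40.1%, 32.7 to 47.9) against 24.9% of kappa-only cells (23.8 to 26.0). IGKJ1, the most upstream, was used by 28 of 172 (16.3%, 11.1 to 22.7) against 30.8% (29.6 to 32.0). IGKJ2 stood at 29.1% and 30.4% and IGKJ4 at 14.5% and 13.8%, and IGKJ3 was in 0 of 172 and 0 of 5822. The kappa V gene IGKV8-24 was held by 15 of these 172 cells (8.72%, 4.96 to 14.0) against 4.23% of kappa-only cells (3.72 to 4.77). Without cells of more than 1 heavy chain IGKJ5 was at 43.8% (57 of 130, 35.2 to 52.8) and IGKJ1 at 13.8%. Only 8 of the 48 564Igi cells with both light chains had a leading kappa chain other than the candidate, too few to compare. A nonproductive kappa contig was present in 93 of 401 WT sole-lambda cells (23.2%, 19.1 to 27.6) and in 537 of 5822 kappa-only cells (9.22%, 8.49 to 10.0). In 564Igi the counts were 6 of 50 (12.0%, 4.53 to 24.3) and 47 of 3551 (1.32%, 0.974 to 1.76).

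Heavy chains of sole-lambda cells differed in V family from those of kappa-only cells. IGHV1, the largest family, was used by 134 of 327 WT sole-lambda cells (41.0%, 35.6 to 46.5) against 60.4% of 4294 kappa-only cells (58.9 to 61.9). IGHV10 was used by 28 (8.56%, 5.77 to 12.1) against 1.98% (1.58 to 2.44), and IGHV9 by 34 (10.4%, 7.31 to 14.2) against 5.71% (5.03 to 6.44). IGHV5 differed less, at 7.34% and 6.99%, as did IGHV8 (8.26% and 5.17%), IGHV2 (8.26% and 5.43%), IGHV6 (4.89% and 2.98%), IGHV14 (3.67% and 3.82%), IGHV3 (3.36% and 4.68%) and IGHV7 (2.14% and 1.35%). The 28 IGHV10 cells held 28 distinct heavy CDR3s and the 34 IGHV9 cells 34. The IGHV10 cells used IGHV10-1 in 18 WT sole-lambda cells (5.50%, 3.29 to 8.56) against 0.908% of kappa-only cells, and IGHV10-3 in 10 (3.06%) against 1.07%. IGHV9-3 made up 30 of the 34 IGHV9 cells.

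IGHV10 was more frequent with IGLV2 and IGLV3 than with IGLV1 in WT. Over all WT lambda cells with a heavy chain, IGHV10 was used by 22 of 124 IGLV2 cells (17.7%, 11.5 to 25.6), 9 of 63 IGLV3 cells (14.3%, 6.75 to 25.4) and 8 of 292 IGLV1 cells (2.74%, 1.19 to 5.33). In 564Igi it was used by 4 of 13 IGLV2 cells, 0 of 11 IGLV3 cells (up to 27.3%) and 4 of 67 IGLV1 cells, with intervals that overlap. Of the 45 564Igi sole-lambda cells with a heavy chain, 6 used IGHV10 (13.3%, 5.05 to 26.8), with 6 distinct CDR3s, against 26 of 3231 kappa-only cells (0.805%), and 13 carried the candidate heavy chain (28.9%, 16.4 to 44.3) against 51.7% of kappa-only cells. Switched constant genes were rare with either light chain. They were read in 1 of 313 WT sole-lambda cells (IGHA, 0.319%, 0.00809 to 1.77) and 25 of 4018 kappa-only cells (0.622%, 0.403 to 0.917), and in 564Igi in 1 of 43 (IGHG2B, 2.33%, 0.0589 to 12.3) and 33 of 3155 (1.05%, 0.721 to 1.47).

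**Figure D4:**
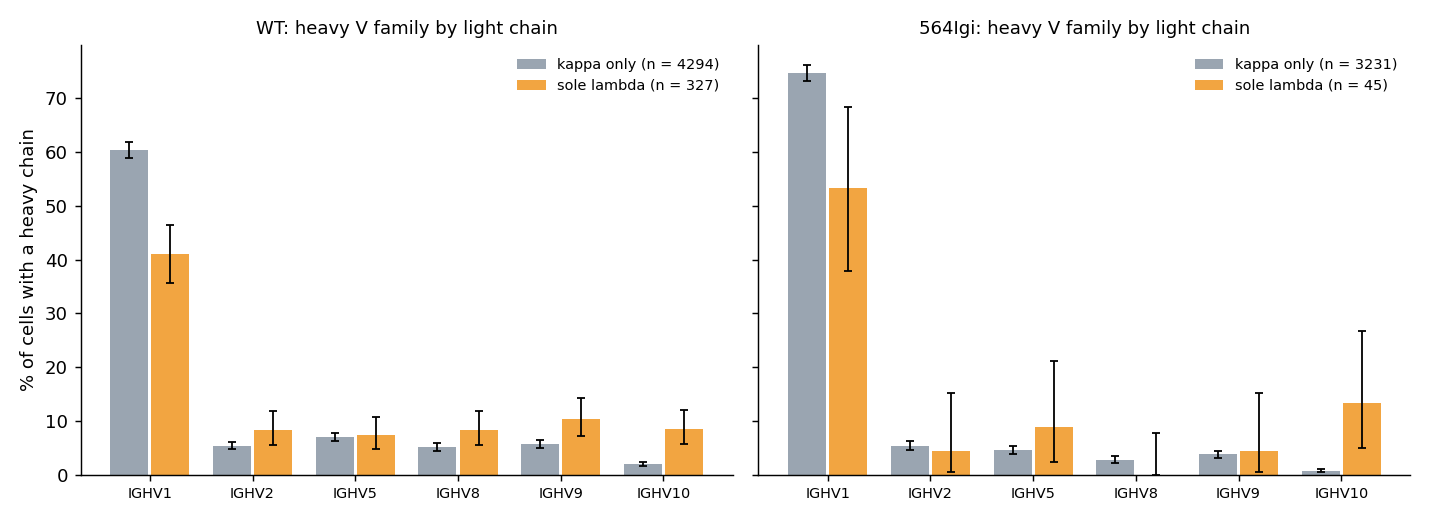
Share of cells with a heavy chain (y axis, %) that used each of 6 heavy V families (x axis), for kappa-only cells in grey and sole-lambda cells in orange, in WT (left) and 564Igi (right), with exact 95% intervals. IGHV10 is higher in sole-lambda cells of either mouse (8.56% against 1.98% in WT, 13.3% against 0.805% in 564Igi).

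Nonproductive contigs were a larger part of lambda than of the other chains. They made up 275 of 856 WT lambda contigs (32.1%, 29.0 to 35.4) and 52 of 151 in 564Igi (34.4%, 26.9 to 42.6). The corresponding shares were 8.79% and 1.88% of kappa contigs and 11.9% and 4.03% of heavy chain contigs. These shares count a recurring chain in every cell that holds it. In 564Igi the candidate kappa chain was 3455 of 3755 productive kappa contigs. The candidate heavy chain was in 51.7% of kappa-only cells with a heavy chain. Shares without these 2 chains were not computed, so the 564Igi values are a limited background for lambda. Of the nonproductive lambda contigs, 267 of 275 in WT and 52 of 52 in 564Igi carried no productivity call and not an explicit negative one. Of the 8 called nonproductive, 3 had a stop codon in CDR3. The segments were not used alike. IGLV1-IGLJ3 contigs were nonproductive in 75 of 112 WT cases (67.0%, 57.4 to 75.6) and 18 of 35 in 564Igi (51.4%, 34.0 to 68.6), against 128 of 432 (29.6%, 25.4 to 34.2) and 25 of 80 (31.3%) for IGLV1-IGLJ1, 28 of 167 (16.8%, 11.4 to 23.3) and 5 of 20 for IGLV2-IGLJ2, and 28 of 105 (26.7%) and 2 of 14 for IGLV3-IGLJ2. In WT, IGLV1-IGLJ3 was 6.37% of productive and 27.3% of nonproductive contigs.

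These contigs were well supported, at a median of 38 UMIs in WT and 31 in 564Igi against 51 and 44 for productive ones. Lengths were compared at the most common productive ones, so a higher share among productive contigs was partly set by that choice. Median lengths of productive and nonproductive WT contigs were 512 and 512 bases for IGLV1-IGLJ1, 552 and 552 for IGLV2-IGLJ2, and 551 and 550 for IGLV1-IGLJ3. For IGLV1-IGLJ1, 52.6% of productive contigs in WT had a length of 510 or 512 bases and 24.2% of nonproductive ones did, whose most common length was 511. In 564Igi these shares were 52.7% and 12.0%, and the most common nonproductive length was again 511. For IGLV2-IGLJ2 (550 or 552 bases) the WT shares were 43.2% and 10.7%. For IGLV1-IGLJ3 (549 or 550 bases) the intervals overlapped, at 43.2% (27.1 to 60.5) and 29.3% (19.4 to 41.0) in WT and 41.2% and 16.7% in 564Igi. The reading frame itself was not read. A nonproductive lambda contig was present in 46 of 401 WT sole-lambda cells (11.5%, 8.52 to 15.0), 17 of 172 cells with both light chains (9.88%) and 174 of 5822 kappa-only cells (2.99%, 2.57 to 3.46). In 564Igi the shares were 14.0%, 4.17% and 0.986%.

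Lambda J and constant segments were also read without a V gene, far more often than with one. IGLJ2-IGLC3 contigs lacking a V gene numbered 1827 in WT and 1061 in 564Igi, IGLJ3-IGLC3 contigs 1401 and 1177, and IGLJ1-IGLC1 contigs 1293 and 1373, at medians of 16, 12 and 5 UMIs in WT. Of lambda segments outside the 9, the pseudogene IGLJ3PSEUDOGENE was named in 51 WT and 31 564Igi contigs and IGLC4 in 9 and 4, all without a V gene. All IGLJ1-IGLC1 contigs carried the chain label Multi, which marks a mixed assignment, and the rule for lambda contigs above leaves all of them out. At least 1 of these 3 kinds was present in 58.8% of WT and 70.9% of 564Igi kappa-only cells, in 26.4% and 18.0% of sole-lambda cells, and in 1 of 3263 and 3 of 4573 T cell barcodes. These T cell barcodes exclude all that were also called B cells, so their low counts were partly set in advance.

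The J segments differed between the mice. Among kappa-only cells, IGLJ1 without a V gene was present in 20.01% in WT and 38.0% in 564Igi, a difference of 18.0 points (16.1 to 19.95), and IGLJ3 in 23.1% and 31.8% (8.63 points, 6.74 to 10.5). IGLJ2 was at 30.2% and 29.3%, a difference of -0.988 points (-2.90 to 0.941). With the UMIs of each cell thinned to 20, which left out 422 WT and 326 564Igi kappa-only cells, the shares were 6.72% and 23.1% for IGLJ1, 27.3% and 29.3% for IGLJ2 and 19.95% and 29.8% for IGLJ3. Within 564Igi, IGLJ1 was at 39.1% (37.5 to 40.8) in kappa-only cells led by the candidate kappa chain and at 25.0% (19.97 to 30.6) in those led by another, and IGLJ3 at 32.4% and 24.6%.

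Within sole-lambda cells of WT, these contigs depended on the J segment already joined. Cells with a joined IGLJ2 held IGLJ2 without a V gene in 0 of 158 cases (up to 1.90%) and IGLJ3 in 1 of 158, but IGLJ1 in 43 of 158 (27.2%, 20.4 to 34.9). Cells with a joined IGLJ1 held IGLJ2 in 30 of 214 (14.0%), IGLJ3 in 12 (5.61%) and IGLJ1 in 19 (8.88%, 5.43 to 13.5). Cells with a joined IGLJ3 held IGLJ3 and IGLJ2 in 0 of 29 cases (up to 10.3%) and IGLJ1 in 5. IGLJ2 and IGLJ3 contigs end in the same named constant gene, IGLC3, and whether a joined contig of that constant gene keeps a contig without a V gene from being listed was not tested.

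**Figure D5:**
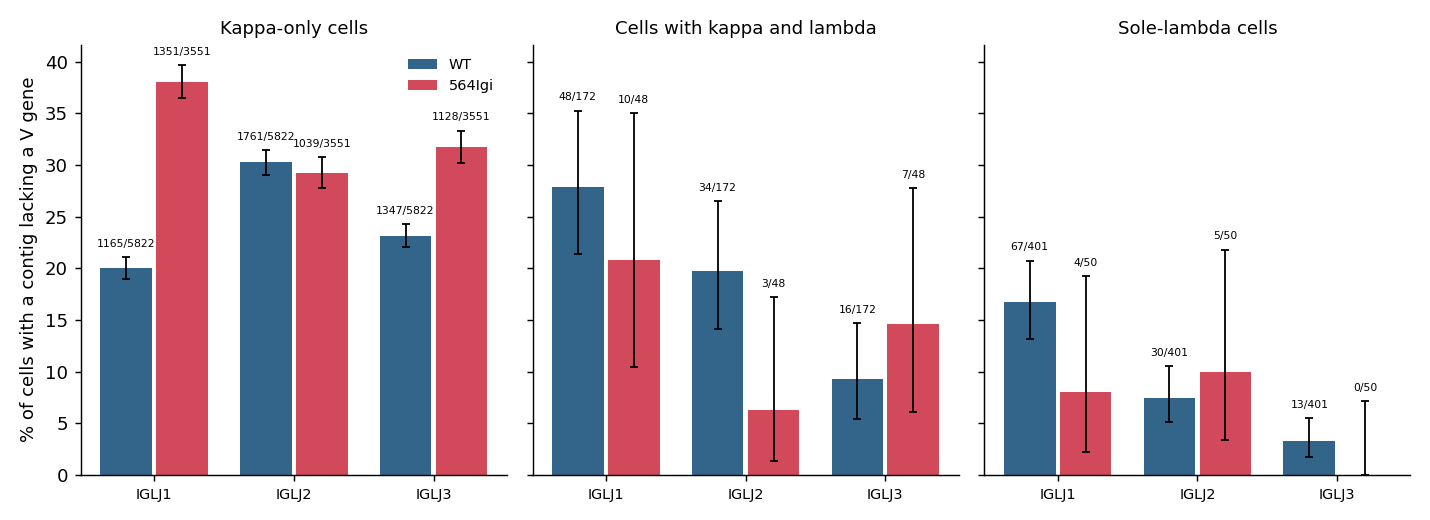
Share of cells (y axis, %) with a contig of IGLJ1, IGLJ2 or IGLJ3 (x axis) and a lambda constant gene that lacks a V gene, in kappa-only cells, cells with kappa and lambda, and sole-lambda cells, with exact 95% intervals and counts. Among kappa-only cells IGLJ1 is at 20.01% in WT (blue) and 38.0% in 564Igi (red), and IGLJ2 and IGLJ3 are lower in sole-lambda than in kappa-only cells of either mouse.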

How the data were processed

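The deposited tables list contigs with read and UMI counts, raw and not normalized per the file headers, with cell calls, a confidence flag, V, J and constant gene names, length and CDR3. Cell Ranger 3.0.2 and mm10 appear in the submitters' processing notes, with no step named for either. Of 6 libraries, the 4 V(D)J libraries were used, and gene expression was not analysed here.

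Barcodes called in both tables of a mouse (345 WT, 373 564Igi) were left out. Chains of a cell were ranked by UMIs, and kappa-only means kappa with no productive lambda chain. Intervals for differences are Newcombe intervals built from exact limits. Beside a count of 0, "up to" marks what 3 counts would give. Members and lists were chosen with earlier results of these data known. V-J pairs with at least 5 cells, CDR3s among the 3 most common of a pair with at least 3 cells, and partner kappa genes or heavy V families with at least 10 lambda cells were named. The candidate heavy chain's split by V-J pair, single genes of IGHV9 and IGHV10 and contigs without a V gene were examined after the data had been seen. Scripts were tested on simulated tables. The software was SciPy 1.17.1, NumPy 2.4.6, pandas 2.3.3 and matplotlib 3.10.9 under Python 3.11.15.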

Additional observations from a re-analysis of the deposited data

Results flagged for a closer look

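The T cell tables, which the comparisons above do not use for lambda, held 8 contigs labelled lambda in 564Igi (of 24033) and 3 in WT (of 17630). All had 1 UMI and none had a V gene, and 6 of the 8 lay in barcodes called cells.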

How the results depend on the processing

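Of 207 values recomputed under alternatives, 181 stayed within the interval of the reported value, 22 moved outside it and 4 turned the sign of a difference whose reported interval left out 0. Over all differences, 5 of 69 changed sign, the fifth being that of IGLJ2 without a V gene, whose reported interval held 0. Many of these changes came from counting each distinct chain or lambda-kappa pair once, which removes the recurrence of the common CDR3s and of the candidate kappa chain. Lambda was then 3.49% of light chains in WT and 7.94% in 564Igi (4.45 points), IGLV1 47.6% in WT (difference 22.97 points) and IGLJ1 42.9% in WT. Kappa accompanied 82.1% of WT lambda pairs (difference -24.1 points). Lambda exceeded kappa in 61.1% of 564Igi pairs (difference -1.62 points), with each pair read from a single cell, the first by barcode. Nonproductive contigs have almost no CDR3 and could not be counted this way. Leaving out cells with 2 heavy chains, or thinning light chains to 10 UMIs, put the WT share of lambda cells with kappa at 24.6% or 25.2%. Leaving out nonproductive contigs of cells with a productive lambda chain put the WT nonproductive share at 26.7%. The IGLV1-IGLJ3 difference was -0.039 points without the candidate heavy chain. Of contigs without a V gene in kappa-only cells, a minimum of 5 UMIs left IGLJ1 at 11.3% in WT and 24.4% in 564Igi (13.1 points) and IGLJ3 at 21.8% in WT. Thinning to 20 UMIs gave 6.72% and 23.1% for IGLJ1, 27.3% in WT for IGLJ2 (difference 2.04 points), and 19.95% and 29.8% for IGLJ3. The alternatives on contigs without a V gene, on the candidate heavy chain and on cells with a productive lambda chain were chosen after seeing the data. No paired analysis was possible because each group was 1 mouse. The 99 productive contigs of 564Igi limit every share within its lambda repertoire.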
